A study of Homo sapiens with 6 samples.

Results

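The 10 genes described here act at the G1 step of the cell cycle and were followed on gene expression microarrays of MDA-MB-231, a breast cancer cell line, after delivery of a microRNA precursor. They were the D cyclins CCND1, CCND2 and CCND3, the E cyclins CCNE1 and CCNE2, the kinases CDK2, CDK4 and CDK6, the transcription factor E2F1 and the retinoblastoma gene RB1. A probe was taken as a member when the transcript that it was designed against is a RefSeq transcript of one of these 10 genes, which gave 11 probes among the 50599 non-control probes, and these 10 genes among 21743 named on the array. The cells received a precursor of hsa-miR-205-5p, a precursor of hsa-miR-214-3p or a scrambled precursor that served as negative control, each at 30 nM by lipid reverse transfection, and RNA was taken 72 h later. Each group held 2 arrays, 6 in all, and every array carried RNA of the same line, so that no untransfected cells and no second line stood beside the control. The labels number the replicates without saying whether they came from separate transfections, so p-values measure only the spread between these arrays, which may be technical.

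Cells leave G1 when cyclin D binds CDK4 or CDK6 and the complex phosphorylates the RB1 protein, which in its unphosphorylated form holds E2F factors inactive. Released E2F1 switches on genes for S phase, among them those of the E cyclins, whose partner CDK2 phosphorylates RB1 further. In breast cancer this step is the point of action of CDK4/6 inhibitors, and CCND1 is frequently amplified in breast tumours. In RNA of whole cultures, fewer cells in a cell cycle phase and less RNA per cell cannot be told apart.

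The mature sequences of the delivered microRNAs are shown because every comparison turns on them. They are RefSeq sequences on GRCh38.p14, written 5′ to 3′, with the seed, bases 2 to 8, in capitals. The gene of hsa-miR-205-5p lies on the plus strand, with the mature sequence at chr1:209432166-209432187, and that of hsa-miR-214-3p on the minus strand, at chr1:172138816-172138837. The seeds differ from each other.
hsa-miR-205-5p: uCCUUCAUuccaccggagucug
hsa-miR-214-3p: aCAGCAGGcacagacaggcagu

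Values below are normalized signals, that is the log2 of the scanner's processed signal minus the 75th percentile of the same array, and a probe counted as detected in a group when both of its arrays had it well above background. Between 35.5% and 42.2% of the 58717 spots of an array were well above background, none was saturated, and the 75th percentile ran from 35.1 to 58.0 signal units. The scrambled arrays differed most from each other (SD of the replicate difference over 18464 detected probes 0.667 on the log2 scale), against 0.504 for hsa-miR-205-5p and 0.341 for hsa-miR-214-3p. Of 6 genes listed as typical of this mesenchymal line, VIM, CD44, AXL, CAV1 and FN1 were well above background on all 6 arrays and SPARC on none. Of 6 genes listed as low or absent in it, ESR1 and PGR were above background on no array, while ERBB2, GATA3, CDH1 and EPCAM were on all 6, and these 4 read above both control arrays with hsa-miR-205-5p. EPCAM read 3.21 and 2.77 there against 0.35 and 0.83 with the control, and CDH1 0.87 and 0.64 against -1.09 and -1.33. The summed level of the 6 genes (log2) was 5.33 to 5.40 with hsa-miR-205-5p, 4.07 to 4.16 with hsa-miR-214-3p and 4.43 to 4.49 with the control, and that of the mesenchymal genes 9.77 to 9.78, 9.71 to 9.78 and 9.70 to 9.75. Of the 5 detected mesenchymal genes VIM, CAV1 and FN1 read below both control arrays with hsa-miR-205-5p and AXL above both. Of the 4 blood and endothelial markers CDH5 was above background on no array, PTPRC on 2, PECAM1 on 3 and CD68 on 6. Their summed level was 2.14 to 2.45 with hsa-miR-205-5p, 3.37 to 3.39 with hsa-miR-214-3p and 3.03 to 3.54 with the control. With hsa-miR-205-5p CD68 and PECAM1 read below both control arrays, and PTPRC and CDH5 above both. The part of these markers in the results was not tested.

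Of the 10 genes, 8 were detected, each by 1 probe that was well above background on all 6 arrays. CCND2 was not, nor was either probe of CCNE2. A gene was called when the limma test across all detected probes gave a Benjamini-Hochberg adjusted p under 0.05 together with a change of at least 2-fold, and it is said to have risen or fallen when the adjusted p alone was under 0.05.

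With hsa-miR-205-5p against the scrambled control, CCND3, CDK4 and E2F1 fell, by 1.95-fold, 1.81-fold and 1.76-fold. Their adjusted p was 0.0816 each without the filter on dim probes and 0.158, 0.174 and 0.176 under the methods' t-test, so none fell under these settings. Under that t-test no probe of the array passed (smallest adjusted p 0.0833). Without the filter 0.603% of all probes were called lower at 2-fold. With the replicate number fitted as a block E2F1 did not fall. In the main setting none of the 8 detected genes was called at 2-fold, where 8.05% of all detected probes were called lower and 4.14% higher. The count stayed at 0 with an unadjusted limma p under 0.05 and the same 2-fold limit, where 10.4% of probes were lower and 5.37% higher, and under the methods' t-test. The 3 that fell compare with 11.1% of probes that fell at any fold, and 0 that rose with 8.3% that rose. The hsa-miR-205-5p arrays lay below both scrambled arrays for 6 genes, where 28.7% of probes did so, and above both for 2 genes, where 33.6% did so. The median change was -0.69 over the 8 genes and 0.05 over all detected probes.

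With hsa-miR-214-3p against the same scrambled arrays, CCNE1 was called lower and fell by 2.34-fold, and no other detected gene rose or fell. The limma adjusted p of CCNE1 was 0.178 without the filter on dim probes and 0.0865 with only the 4 arrays compared. It was 0.0879 with the replicate number fitted as a block and 0.23 under the methods' t-test, so the call was lost under these settings. In each of them 0 probes of the array were called, so the loss was not one of CCNE1 alone. At 2-fold in the main setting, 1.68% of probes were called lower and 0.991% higher, and at any fold 1.73% fell and 1.08% rose. The arrays did not overlap for 2 genes that were lower and 2 that were higher, where 28.6% and 26.8% of probes behaved so. The median change was 0.12 over the 8 genes and -0.01 over all detected probes.

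Set directly against hsa-miR-214-3p, hsa-miR-205-5p gave lower CCND3, CCND1 and CDK4 and higher CCNE1, and CCND3 alone was called at 2-fold. Of all probes 11.6% were called lower and 8.37% higher at 2-fold, and 16% were lower and 15.7% higher at any fold. The arrays of the groups did not overlap for 5 genes that were lower with hsa-miR-205-5p and 2 that were higher, against 35.2% and 43.2% of probes. The median change was -0.53 over the 8 genes and 0.09 over all detected probes.

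**Figure D1:**
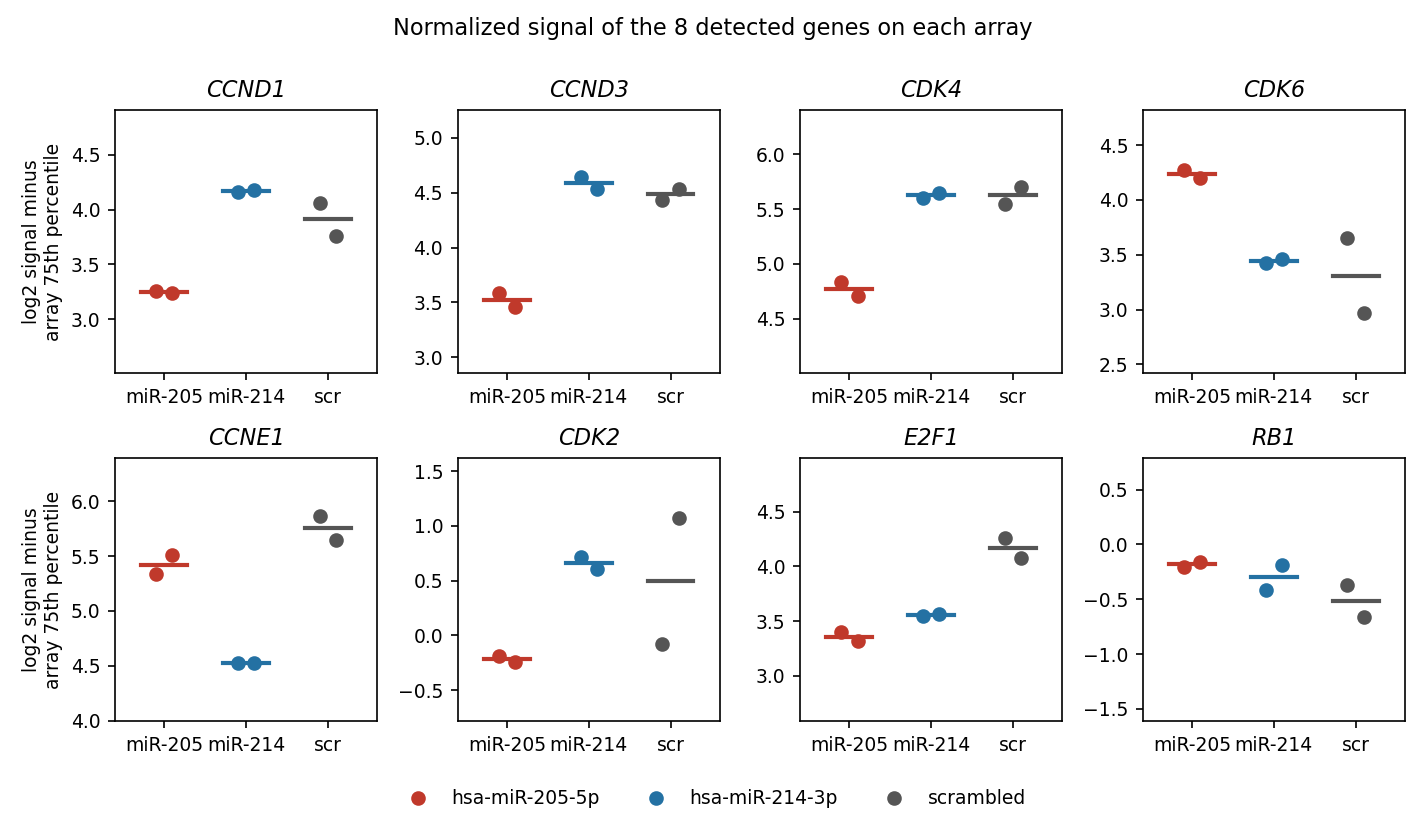
Normalized signal (vertical axis, log2 processed signal minus the array's 75th percentile) of the 8 detected genes. Each point is 1 array, each line the mean of the 2 arrays of a group, and every panel spans the same range, with the group named by its precursor on the horizontal axis (scr, scrambled). CCND1, CCND3 and CDK4 are lowest with hsa-miR-205-5p, CCNE1 is lowest with hsa-miR-214-3p, and the scrambled arrays lie far apart for CDK2 and CDK6.

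The size of the 2-fold count depended on how arrays were scaled. Scaling on the median of each array moved the median change of all detected probes with hsa-miR-205-5p against the control by -0.39 on the log2 scale, and the share of called probes that were lower from 66% (1486 lower, 764 higher) to 91.3% (2913 lower, 276 higher). Under that scaling 4 of the 8 genes, CCND1, CCND3, CDK4 and E2F1, were called lower, where 15.8% of all detected probes were. With normexp background correction 2 were (CCND3 and CDK4), where 4.56% of probes were, and with the 75th percentile taken over probes detected on all arrays 1 was (CCND3), where 8.51% were. Under normexp 85% of called probes were lower (842 lower, 149 higher). Taken relative to the median of all probes, the scalings that differ by 1 constant an array give the same change by construction. They are the main one, the median and the percentile over probes detected on all arrays. This leaves 4 settings with normexp, quantile normalization and the authors' table, which was itself quantile normalized. Over these the change ranged from -1.22 to -1 for CCND3, from -1.09 to -0.91 for CDK4, from -0.96 to -0.81 for E2F1 and from -0.79 to -0.66 for CCND1. CDK6 ranged from 0.71 to 0.92 on the same footing, CCNE1 from -0.51 to -0.39 and RB1 from 0.17 to 0.32. CDK2 ranged most, from -0.84 to -0.35. For hsa-miR-214-3p against the control the share of lower among called probes was 63% (311 lower, 183 higher) in the main setting, 84.7% under median scaling (365 lower, 66 higher) and 84.4% under normexp (244 lower, 45 higher), and CCNE1 ranged from -1.30 to -1.22 relative to the median. For the direct comparison that share was 58% (2133 lower, 1545 higher) in the main setting and 76.3% under median scaling (2846 lower, 884 higher).

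The D cyclins bind and activate CDK4 and CDK6, and CCND1 is the D cyclin gene most often altered in breast cancer. Its probe (A_23_P202837, printed in 10 spots) read 3.25 and 3.24 with hsa-miR-205-5p, 4.16 and 4.18 with hsa-miR-214-3p, and 4.06 and 3.76 with the scrambled control. Both hsa-miR-205-5p arrays were thus below all 4 others, while both hsa-miR-214-3p arrays were above the scrambled ones. Against the control the CCND1 difference was -0.67 (SE 0.172) with hsa-miR-205-5p, a limma adjusted p of 0.0502 that missed the threshold. It was between 0.0122 and 0.0463 under the other 5 scalings and normalizations, 0.0326 over probes detected on all 6 arrays and 0.0255 with an intensity trend, and 0.0816 without the filter, 0.137 with only the 4 arrays compared and 0.239 under the methods' t-test. With hsa-miR-214-3p the change was 0.26 (95% interval -0.18 to 0.69, limma adjusted p 0.432). The direct difference was -0.92 (SE 0.172, limma adjusted p 0.0154), or 1.90-fold lower with hsa-miR-205-5p, and leaving out any of the 4 arrays compared took its adjusted p to between 0.069 and 0.117. Among the 6 fits with an array left out, the change against the control had an adjusted p under 0.05 in those without a scrambled array, at 0.0386 without scrambled replicate 1 and 0.029 without scrambled replicate 2, with changes of -0.52 and -0.82.

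CCND3, a broadly expressed D cyclin, read 3.58 and 3.46 with hsa-miR-205-5p (probe A_23_P361773). It read 4.65 and 4.54 with hsa-miR-214-3p and 4.44 and 4.53 with the scrambled control. The hsa-miR-205-5p arrays stood about 1 log2 unit below the rest, and the other groups lay side by side. The change with hsa-miR-205-5p was -0.96 (SE 0.157, limma adjusted p 0.0173) against the control and -1.07 (SE 0.157, limma adjusted p 0.00876, 2.10-fold) against hsa-miR-214-3p. The change with hsa-miR-214-3p against the control was 0.11 (95% interval -0.29 to 0.50, limma adjusted p 0.731), and its sign turned under normexp and under median scaling. With an array left out, the adjusted p against the control rose to 0.0667 and 0.0928 without hsa-miR-205-5p replicate 1 or 2 and to 0.0668 without either hsa-miR-214-3p array, and stayed at or below 0.0311 without a scrambled array. The direct call was lost without hsa-miR-205-5p replicate 2 (0.0528) and without hsa-miR-214-3p replicate 1 (0.0825) or 2 (0.0756).

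CCND2, the remaining D cyclin, was measured by probe A_24_P278747, which was well above background on none of the 6 arrays. Its readings ran from -4.37 to -2.29, both ends on the scrambled arrays. No change is given for it, since both groups of every comparison were below background.

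CDK4 and CDK6 are the kinases that the D cyclins activate, and with hsa-miR-205-5p CDK4 fell while CDK6 read higher by a margin that missed the threshold. CDK4 (A_23_P24997) read 4.83 and 4.70 with hsa-miR-205-5p, 5.60 and 5.65 with hsa-miR-214-3p, and 5.55 and 5.70 with the control. Only the hsa-miR-205-5p arrays stood apart. The change was -0.86 (SE 0.159, limma adjusted p 0.0228) against the control and -0.86 (SE 0.159, limma adjusted p 0.0151) against hsa-miR-214-3p. Between hsa-miR-214-3p and the control the difference was 0.001 with a 95% interval from -0.40 to 0.40. The adjusted p against the control was 0.08 and 0.116 without hsa-miR-205-5p replicate 1 or 2, 0.0825 without either hsa-miR-214-3p array, and 0.0161 and 0.0363 without scrambled replicate 1 or 2. Directly against hsa-miR-214-3p, leaving out any of the 4 arrays compared took it to between 0.0585 and 0.124.

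CDK6 (A_24_P166663) read 4.28 and 4.20 with hsa-miR-205-5p, 3.42 and 3.46 with hsa-miR-214-3p, and 3.65 and 2.97 with the control. The hsa-miR-205-5p arrays were above all others, and the scrambled arrays, 0.69 apart, lay on either side of the hsa-miR-214-3p arrays. The change with hsa-miR-205-5p was 0.93 (SE 0.255) against the control and 0.80 (SE 0.255) against hsa-miR-214-3p, and neither passed the threshold (limma adjusted p 0.0588 and 0.0644). It rested on the control arrays, for without scrambled replicate 1 the change was 1.27 and CDK6 was called higher (limma adjusted p 0.00923), and without scrambled replicate 2 it was 0.58 (limma adjusted p 0.0515). For the direct difference the adjusted p was 0.00896 when either scrambled array was left out of the shared estimate of spread, and between 0.163 and 0.231 when any of the 4 arrays compared was. For hsa-miR-214-3p against the control the change was 0.13 (95% interval -0.51 to 0.77), and its sign differed between settings.

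**Figure D2:**
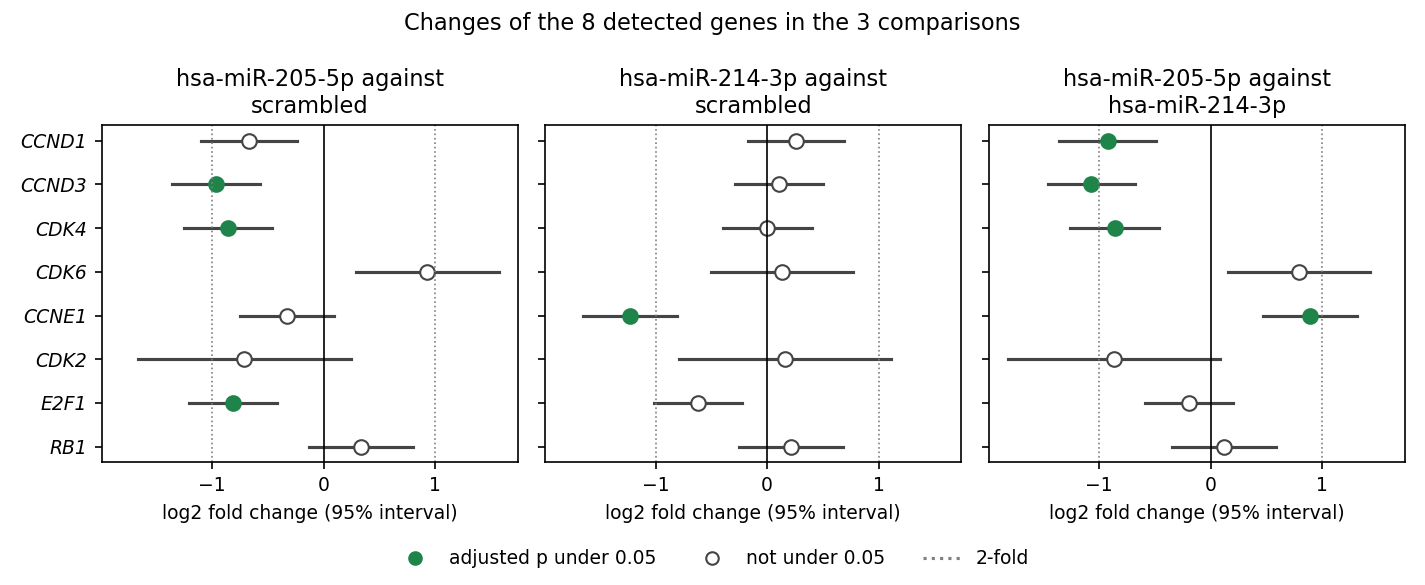
Change of the 8 detected genes (log2 fold change, horizontal axis) in the 3 comparisons. Points are limma estimates over 2 arrays per group, bars their 95% intervals, filled points have an adjusted p under 0.05, and dotted lines mark 2-fold. CCND3, CDK4 and E2F1 are filled in the first panel, CCNE1 alone in the second, and CCND1, CCND3, CDK4 and CCNE1 in the last.

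The E cyclins follow the D cyclins and activate CDK2 at the entry to S phase. CCNE1 (A_23_P209200) read 5.33 and 5.51 with hsa-miR-205-5p, 4.53 on both arrays with hsa-miR-214-3p, and 5.86 and 5.65 with the control. The hsa-miR-214-3p arrays were more than 1 log2 unit below both control arrays, and the hsa-miR-205-5p arrays lay between. With hsa-miR-214-3p the change against the control was -1.23 (SE 0.168, 95% interval -1.65 to -0.80), with a limma adjusted p of 0.037. Of all detected probes 2.74% had a change below that of CCNE1. With hsa-miR-205-5p it was -0.33 (95% interval -0.75 to 0.09, limma adjusted p 0.211), and the direct difference was 0.89 (SE 0.168, limma adjusted p 0.0159), higher with hsa-miR-205-5p. With an array left out, the change with hsa-miR-214-3p against the control stayed between -1.33 and -1.12. The CCNE1 call was kept only in the fit without scrambled replicate 2. In the other fits the whole array lost its calls in this comparison, so the loss was not one of CCNE1 alone. For the direct difference the adjusted p was between 0.0552 and 0.119 when any of the 4 arrays compared was left out.

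CCNE2 had 2 probes, of which A_33_P3247022 was well above background on 1 array, scrambled replicate 1, and A_33_P3217819 on none. The first read from -2.99 to -1.39 and the second from -4.84 to -2.84. The second ran in the order hsa-miR-205-5p (-2.84 and -3.72), hsa-miR-214-3p (-4.05 and -4.22) and control (-4.52 and -4.84) (signals of at most 5.81 units), all below background, so no fold is given.

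CDK2, the partner of the E cyclins, was measured by A_23_P98898 in 10 spots. It read -0.18 and -0.24 with hsa-miR-205-5p, 0.71 and 0.61 with hsa-miR-214-3p, and -0.08 and 1.08 with the control. The control arrays were 1.15 apart and enclosed the hsa-miR-214-3p arrays, while the hsa-miR-205-5p arrays were below all others. The change with hsa-miR-205-5p was -0.71 (SE 0.38, limma adjusted p 0.232) against the control and -0.87 (SE 0.38, limma adjusted p 0.132) against hsa-miR-214-3p, and under normexp these were -0.35 each. Without scrambled replicate 1 the change against the control was -1.29 and CDK2 was called lower (limma adjusted p 0.00971), and without scrambled replicate 2 it was -0.13 (limma adjusted p 0.51). For hsa-miR-214-3p the same omissions gave -0.42 and 0.74 (limma adjusted p 0.151 and 0.0412), so the sign rested on which control array was used. With a scrambled array left out of the shared estimate of spread, the direct comparison had an adjusted p of 0.00828 for the same change of -0.87, and without any of the 4 arrays compared one of 0.269 to 0.343.

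The repeated spots of CDK2 showed the same split between the control arrays. On scrambled replicate 1 the normalized signal of the 8 spots used ran from -0.20 to 0.19 and on scrambled replicate 2 that of 8 spots ran from 1.01 to 1.15, with no overlap. The log2 SD over CDK2 spots was 0.148 and 0.0651 there, against the 1.15 between the arrays. For CCND1 the spots of the hsa-miR-205-5p arrays (2.87 to 3.46) and of the control arrays (3.42 to 4.28) met at their ends. For E2F1 the hsa-miR-205-5p spots reached 3.60 and the hsa-miR-214-3p spots 3.74, and the control spots began at 3.96.

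**Figure D3:**
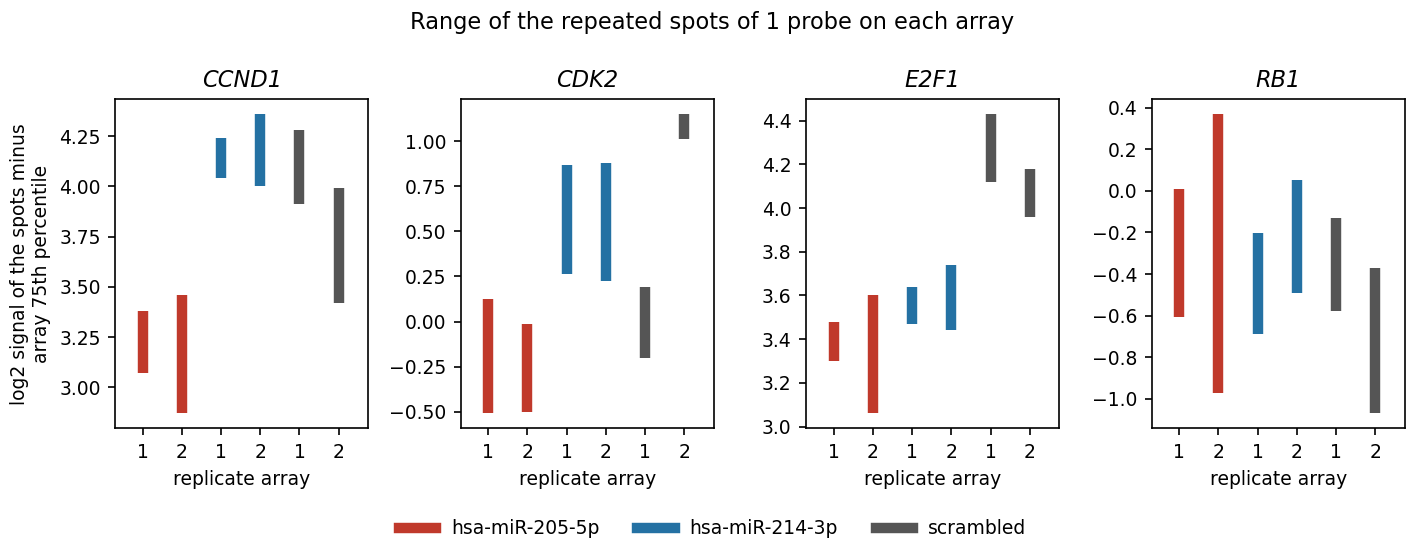
Lowest to highest normalized signal (bars, log2 processed signal minus the array's 75th percentile) of the repeated spots of 4 genes on each array, left to right by replicate within a group. CDK2 spots of scrambled replicate 2 (1.01 and above) lie above those of scrambled replicate 1 (0.19 and below), and RB1 spots overlap between all groups.

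E2F1, the factor that RB1 restrains, read 3.40 and 3.32 with hsa-miR-205-5p on probe A_23_P80032. It read 3.55 and 3.56 with hsa-miR-214-3p and 4.26 and 4.08 with the control. All 4 precursor arrays were thus below both control arrays, with the hsa-miR-205-5p arrays lowest. Against the control the change was -0.81 (SE 0.158, limma adjusted p 0.0254) with hsa-miR-205-5p and -0.62 (SE 0.158, limma adjusted p 0.105) with hsa-miR-214-3p, and these changes share the control arrays. With the replicate number fitted as a block, the change with hsa-miR-205-5p no longer passed the threshold. The direct difference was -0.20 (95% interval -0.59 to 0.20, limma adjusted p 0.363). For hsa-miR-205-5p the adjusted p was 0.0908 and 0.123 without its replicate 1 or 2, 0.0898 without either hsa-miR-214-3p array, and 0.0217 and 0.0273 without scrambled replicate 1 or 2. For hsa-miR-214-3p it was under the threshold in 1 of 6 such fits, without scrambled replicate 2 (-0.71, limma adjusted p 0.041).

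RB1 codes for the pocket protein that binds E2F factors. Its probe (A_23_P204850) read -0.20 and -0.16 with hsa-miR-205-5p, -0.42 and -0.19 with hsa-miR-214-3p, and -0.37 and -0.67 with the control. The groups overlapped in 2 of the 3 comparisons, and the spots of 1 array had a log2 SD of 0.153 to 0.376. The change with hsa-miR-205-5p was 0.34 (95% interval -0.13 to 0.80, limma adjusted p 0.243). It turned to -0.05 under median scaling, which moved all probes alike, and relative to the median of all probes it was 0.28 in both settings. With hsa-miR-214-3p it was 0.22 (95% interval -0.25 to 0.68, limma adjusted p 0.537), and the direct difference was 0.12 (95% interval -0.34 to 0.59, limma adjusted p 0.636).

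Because the scaling of an array cancels when 2 probes of that array are set against each other, the shift of 1 gene relative to another was also taken on each array, with the mean of the control arrays set to 0. The 4 pairs were chosen after the values above had been seen, so the shifts are given without a test. CDK6 relative to CDK4 shifted by 1.76 and 1.81 with hsa-miR-205-5p and by 0.14 and 0.13 with hsa-miR-214-3p, and the control arrays were at 0.42 and -0.42. The D cyclins and CCNE1 shifted apart in the other group. CCND3 relative to CCNE1 shifted by 1.39 and 1.27 with hsa-miR-214-3p and by -0.48 and -0.78 with hsa-miR-205-5p, with the controls at -0.16 and 0.16. CCND1 relative to CCNE1 shifted by 1.47 and 1.49 with hsa-miR-214-3p and by -0.24 and -0.43 with hsa-miR-205-5p, with the controls within 0.04 of 0. E2F1 relative to RB1 shifted by -1.09 and -1.21 with hsa-miR-205-5p and by -0.72 and -0.94 with hsa-miR-214-3p, with the controls within 0.06 of 0. These shifts show unequal change of the paired genes, not which of them changed.

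**Figure D4:**
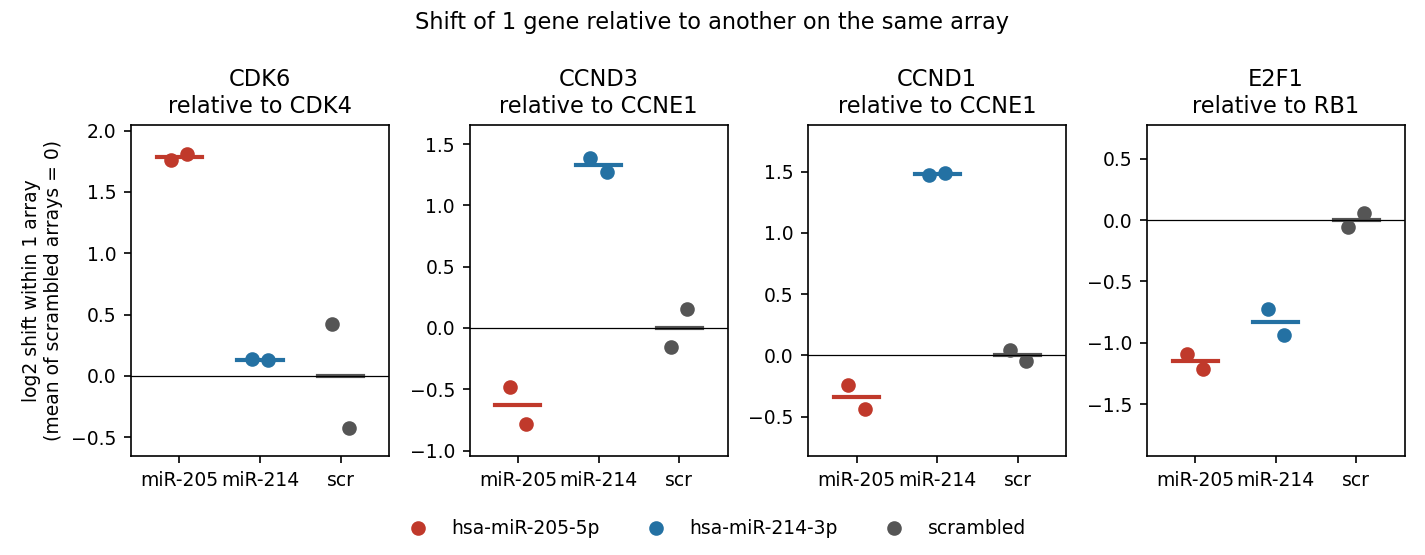
Shift of a gene relative to another on the same array (vertical axis, log2, with the mean of the scrambled arrays at 0) for 4 pairs. Points are arrays and lines the group means. CDK6 relative to CDK4 is near 1.79 with hsa-miR-205-5p, and CCND1 relative to CCNE1 is near 1.48 with hsa-miR-214-3p.

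The E2F1 and E2F2 genes are themselves under E2F control, and the E2F1 and E2F2 promoters are shown because these genes were lower with hsa-miR-205-5p. The 250 bases before each start in the RefSeq table (GRCh38.p14) were searched on both strands for TTTCCCGC, TTTGGCGC, TTTCGCGC and TTTGCCGC. Such a word was found in 2.79% of 35116 windows and for 3.4% of the 27305 genes that they belong to. Windows were held for 6 of the 10 genes, CCND3, CDK4, CDK6, CCNE1, E2F1 and RB1, and E2F1 alone among them had a match. It had 2, from 33 to 26 bases before the start on the opposite strand and from 20 to 13 bases before it on the gene's strand, while E2F2 had 1, from 42 to 35 bases before the start. Among the other G1 to S genes described further on, which include E2F targets by choice, 15 of 51 (29.4%) had a match. One of them, LIN52, was undetected with hsa-miR-205-5p and is left out of the counts that follow. With hsa-miR-205-5p against the control 2 of the other 14 fell (E2F2 and CDC37), 0 rose, and 9 read below 0. Of the 34 tested list genes whose windows held no match 5 fell (MYBL2, MCM2, CDKN1B, E2F4 and RBBP4), 1 rose, and 15 read below 0, and over all detected genes 11.3% fell and 9.81% rose. The last 100 bases before each start follow, 5′ to 3′ on the gene's strand, which is the minus strand for both, with the matches in capitals (chr20:33686386-33686485 for E2F1 and chr1:23531234-23531333 for E2F2).
E2F1: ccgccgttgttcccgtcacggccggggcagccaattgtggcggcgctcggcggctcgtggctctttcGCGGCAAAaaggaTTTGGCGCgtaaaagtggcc
E2F2: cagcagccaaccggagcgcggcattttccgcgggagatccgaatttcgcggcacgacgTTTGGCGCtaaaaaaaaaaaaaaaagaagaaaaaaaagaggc
A match is a description of the letters, and no match says only that these words are not in the window.

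The other genes of the G1 to S step were followed by 6 lists of 56 genes, of which 53 had a detected probe (E2F8, CDKN2B and FBXO4 had none). Each gene was read from its brightest detected probe. With hsa-miR-205-5p against the control 5 of the 53 genes were called lower and 0 higher, where 7.98% of all 11974 detected genes were called lower and 4.78% higher. Of the 5, LIN52 passed the filter through the control arrays alone, and the other 4 were well above background on all 6 arrays. At any fold 9 fell and 1 rose, against 11.3% and 9.81% of all genes. With an unadjusted p under 0.05 and 2-fold 6 were lower and 0 higher, against 10% and 5.7% of genes. With hsa-miR-214-3p 0 were called lower and 0 higher, where 2.03% and 1.09% of genes were, and an unadjusted p under 0.05 gave 1 lower gene, E2F2, and 0 higher, against 4.13% and 2.66% of genes. In the direct comparison 8 were called lower and 4 higher with hsa-miR-205-5p, where 11.3% and 9.18% of genes were, and 7 of the 8 and 3 of the 4 were well above background on all 6 arrays. LIN52, the remaining lower gene, was detected on 1 of the 4 arrays compared, so no fold is given for it there. The median change over the 53 genes was -0.17, -0.01 and 0.07 in the 3 comparisons, against 0.08, -0.01 and 0.12 over all detected genes.

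Among the RB family and E2F partners, hsa-miR-205-5p gave 1 call among 10 tested genes, a lower one. This was E2F2, an activator E2F like E2F1, which read 2.14 and 1.23 with hsa-miR-205-5p, 2.10 and 1.79 with hsa-miR-214-3p, and 3.55 and 3.23 with the control. All 4 precursor arrays were below the control arrays. Its change was -1.71 (SE 0.341, limma adjusted p 0.0272) with hsa-miR-205-5p and -1.45 (SE 0.341, limma adjusted p 0.0902) with hsa-miR-214-3p. E2F4, an E2F of repressor complexes, fell by 0.90 with hsa-miR-205-5p and TFDP2, a dimer partner of E2F proteins, rose by 0.96, and both stayed short of 2-fold (limma adjusted p 0.0396 and 0.0267). The RB1 relatives RBL1 and RBL2 differed from the control by 0.29 and 0.03, and neither passed the test.

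MuvB subunits such as LIN52 join with pocket proteins to silence cell cycle genes and with MYBL2 to activate them. Of the 6 genes listed for the MuvB and DREAM complexes, MYBL2 and LIN52 met the limits of a lower call with hsa-miR-205-5p. MYBL2 read 1.50 and 1.31 with hsa-miR-205-5p, 2.68 and 2.94 with hsa-miR-214-3p, and 2.90 and 2.74 with the control. Only the hsa-miR-205-5p arrays stood apart, by -1.41 (SE 0.181) against either group (limma adjusted p 0.011 and 0.00638). LIN52 read -3.64 and -3.74 with hsa-miR-205-5p, below the detection limit on both arrays. With hsa-miR-214-3p it read -1.36 and -2.48, and with the control -1.43 and -0.99. LIN52 was at least 1.32-fold lower with hsa-miR-205-5p than with the control, a bound set by the dimmest signals that count as detected. That bound is short of 2-fold, and LIN52, well above background on 3 of 6 arrays, was tested only because both control arrays had it, so its fitted call (limma adjusted p 0.0159) does not show a 2-fold change.

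Of the 18 S phase genes that E2F factors activate, 2 were called lower with hsa-miR-205-5p and 0 higher. MCM2, a subunit of the replicative helicase, read 3.61 and 3.50 with hsa-miR-205-5p, 3.93 and 3.98 with hsa-miR-214-3p, and 4.37 and 4.82 with the control, a change of -1.04 (SE 0.203, limma adjusted p 0.0261). Both hsa-miR-205-5p arrays were below both control arrays for MCM2. The list spread widely around it, from -2.36 for RRM2 (limma adjusted p 0.0521) to 0.92 for PCNA (limma adjusted p 0.335), with 10 of 18 genes below 0 and a median of -0.35. With hsa-miR-214-3p the list ranged from -0.71 to 0.59 with a median of -0.09. In the direct comparison 4 of the 18 were called lower with hsa-miR-205-5p and 0 higher, where 11.3% and 9.18% of all genes were. RRM2 (-2.64), CCNA2 (-1.4) and ORC1 (-1.05) were among the 4, and are named after their values had been seen. The median of the list was 0.09 there, with 8 of 18 genes below 0.

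None of the 6 detected CDK inhibitors was called against the control with either precursor. CDKN1B (p27), an inhibitor of cyclin E with CDK2, fell by 0.72 with hsa-miR-205-5p (limma adjusted p 0.0421, short of 2-fold) and differed by 0.81 with hsa-miR-214-3p (limma adjusted p 0.0758), and the direct difference of -1.53 (SE 0.171, limma adjusted p 0.00512) was called. CDKN2C, an inhibitor of CDK4 and CDK6, differed by -1.10 (SE 0.172, limma adjusted p 0.0101) in the direct comparison. The 5 CDK activators and the 8 detected ubiquitin ligase genes held no call against the control. In the direct comparison the 4 genes called higher with hsa-miR-205-5p, named after their values had been seen, were TFDP2, the CDK7 partner MNAT1, and the ligase genes RBX1 and FBXO31, the last of which was at least 2.12-fold higher, since it was undetected with hsa-miR-214-3p. With an array left out RBX1 was called in 3 of 6 fits, TFDP2 and FBXO31 in 2 and MNAT1 in 0.

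With an array left out, the call of lower MYBL2 under hsa-miR-205-5p held in 5 of 6 fits, the exception being that without hsa-miR-205-5p replicate 2, in which no list gene was called. LIN52 was called in 3 fits, those without a hsa-miR-214-3p array and without scrambled replicate 1. E2F2 was called in 1 fit, without hsa-miR-205-5p replicate 1, and MCM2 in 1, without scrambled replicate 1. The number of list genes called lower moved with the share of all detected genes called lower in the same fits. The loss of calls without hsa-miR-205-5p replicate 2 was one of the whole array, not of these genes alone.

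**Figure D5:**
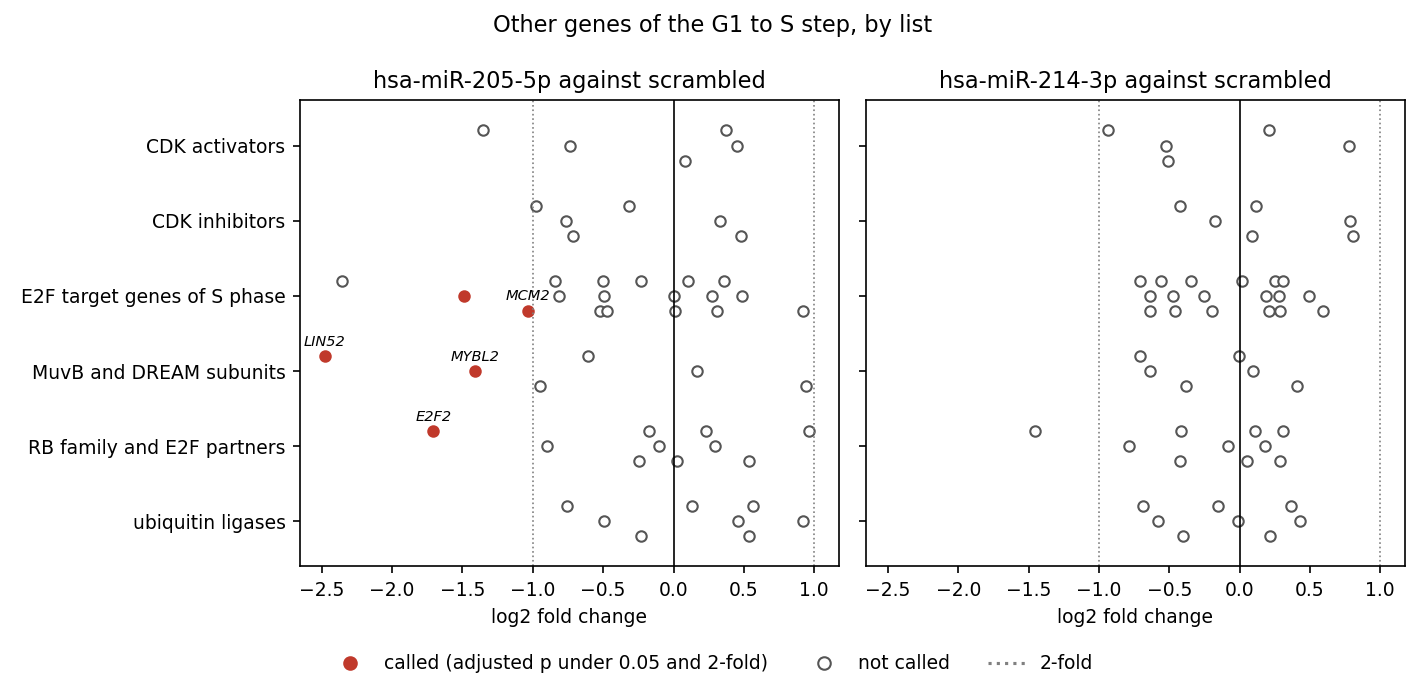
Change of 53 other genes of the G1 to S step (horizontal axis, log2 fold change) by list, with hsa-miR-205-5p (left) and hsa-miR-214-3p (right) against the scrambled control. Each point is 1 gene by its brightest detected probe, filled when called and named where its values are given in the text, and dotted lines mark 2-fold. The 5 filled points are all lower with hsa-miR-205-5p, and the right panel holds none. The LIN52 point is a fitted value of a gene undetected with hsa-miR-205-5p.

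Of the 8 detected genes CCNE1 alone was called against the control, and the genes whose signal ran most like it over the 6 arrays were TGFBRAP1, SCARNA14, PLEKHB1, CDIPT and SNORD104. Their Pearson correlations with CCNE1 ran from 0.996 for TGFBRAP1 to 0.992 for SNORD104. Of 10228 genes compared 8 had a correlation above 0.99 and 372 above 0.9, and all points share the arrays and their scaling.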

How the data were processed

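RNA of transfected MDA-MB-231 cells was measured on 6 1-colour Agilent human gene expression arrays (design build hg19), all on 1 slide and in 1 scan. The deposited scanner files, made by the authors with Agilent Feature Extraction (11.0 in the submitters' processing notes), give the processed signal intensity of each spot after background subtraction. A deposited table of the authors holds log2 values that were brought to 1 common distribution (quantile normalization) and have a median of 3.49 on every array, the offset being unstated. GeneSpring 13.0 was named for their analysis.

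From the intensities, outlier spots (245 to 463 an array) and control spots were left out, spots of a probe averaged, log2 taken and the array's 75th percentile subtracted. A probe was kept when some group had it well above background on both arrays (18464 of 50599). limma (3.58.1, R 4.3.3) was fitted to all 6 arrays (3 residual and 2.47 prior degrees of freedom), p-values being adjusted over every kept probe by Benjamini and Hochberg's method. Probes were named through RefSeq transcripts of GRCh38.p14, which matched 30275 probes. The text names all 10 members, list genes called against the control by their brightest kept probe, and the 5 genes most like the member with the largest called change. Of the called list genes 1 is counted but not reported here. The members, gene lists and tests were chosen with earlier results of these data known. The fit was tested on simulated data. Promoter windows were not held for CCND1, CCND2, CCNE2 and CDK2. The number of arrays limits the precision.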

Additional observations from a re-analysis of the deposited data

How the results depend on the processing

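Each of the 24 changes of a detected gene was recomputed under 19 alternatives. Those that altered only the filter, the test, the estimate of spread or the limits left the fold change itself as it was. So did leaving out an array outside the comparison, and in all these the direction was fixed in advance. Of the 456 values 410 kept their direction and were called, at adjusted p and 2-fold together, as in the main setting or likewise not called, 13 lost a call, 18 gained one and 15 changed sign, 13 of them in hsa-miR-214-3p against the control. Those were -0.11 (CCND3), -0.12 (CDK4) and -0.13 (CDK6) under normexp, and -0.0596, -0.164 and -0.0319 for the same genes and -0.00385 for CDK2 under median scaling. CDK4 was at -0.0159 with the percentile over probes detected on all arrays, and RB1 at -0.0088 in the authors' table. The 6 changes of sign under median scaling go with its common shift of all probes. Under median scaling RB1 was at -0.0536 with hsa-miR-205-5p against the control and at -0.103 in the direct comparison. By adjusted p alone, over the 17 alternatives that refit the test, 329 of 408 values stayed on their side of 0.05, 51 lost it and 28 gained it. All 8 changes under 0.05 in the main setting lost it without the filter, and the 4 against the control (CCND3, CDK4 and E2F1 with hsa-miR-205-5p, CCNE1 with hsa-miR-214-3p) also with only the 4 arrays compared and under the t-test. With an array left out, the change with hsa-miR-214-3p against the control ran from -0.42 to 0.74 for CDK2, from -0.0759 to 0.0786 for CDK4 and from -0.21 to 0.48 for CDK6.

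For hsa-miR-205-5p against the control, the count of detected members called lower was 0 in the main setting, where 8.05% of probes were. It was 2 under normexp (4.56% of probes), 4 under median scaling (15.8%), 1 with the percentile over probes detected on all arrays (8.51%) and 3 without the fold limit (11.1%). It ran from 0 to 2 with an array left out, and the count called higher from 0 to 1. For hsa-miR-214-3p the count called lower, 1 in the main setting, was 0 without a filter on dim probes, with only the 4 arrays compared, and under the methods' t-test with adjustment. In each of these settings 0 probes of the whole array were called lower and 0 higher, so this is not particular to the members. The methods' t-test found 1 member (CCNE1) at the methods' threshold before adjustment. In the direct comparison 1 was called lower in the main setting (11.6% of probes), and 3 under median scaling (15.4%) and without the fold limit (16%). Without the filter 0 were called lower (2.22% of probes), and 1 was called higher without the fold limit (15.7%).

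The list genes called lower with hsa-miR-205-5p against the control, 5 in the main setting, numbered 14 under median scaling, 0 without the filter, 2 with only the 4 arrays compared, 0 under the t-test, 9 without the fold limit and 0 to 9 with an array left out. Of all genes 7.98% were lower in the main setting, and 15.7%, 0.947%, 3.38%, 0% and 11.3% under the first 5 of these. Those called higher numbered 1 under quantile normalization, in the authors' table and without the fold limit, where 4.43%, 4.46% and 9.81% of all genes were. For hsa-miR-214-3p 1 was called lower with unadjusted p, and 0 to 1 lower and 0 to 2 higher with an array left out. In the direct comparison the 8 called lower became 2 without the filter and 3 under the t-test, where 3.34% and 7.88% of all genes were lower. The 4 called higher became 1 under normexp, median scaling and the t-test, where 3.48%, 5.33% and 5.51% of genes were higher. They became 0 without the filter (2.4% of genes) and 9 without the fold limit (17.9%).

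Replicate numbers did not pair the arrays, since the replicate differences of the groups correlated by 0.109, 0.00819 and -0.0514. With the replicate block CCNE1 was no longer called with hsa-miR-214-3p (0 members, limma adjusted p 0.0879) and no probe of the array was, where the main setting called 494. E2F1 with hsa-miR-205-5p was at 0.0506 under the block, and the other 6 changes under 0.05 stayed there. Slide and scan could not be fitted as blocks, all arrays sharing 1 of each. With an array left out, the spread of the lone array was taken from the other groups. The causes of these differences were not tested, and 2 arrays a group limit every result here.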
